A study of Mus musculus with 18 samples.

Results

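The autophagy and mitophagy genes described here are 37 genes of the mouse heart, chosen by name for their step in autophagy. They were chosen with earlier results of these data known, and were found by gene ID among the 55450 genes of the count table. All 37 passed the filter on low counts and were among the 16270 genes tested. Left ventricular myocardium came from FVB/N mice, male according to the study's methods, that were either wild type (WT) or carried a cardiac-specific transgene over-expressing Gαq, the G protein subunit that relays signals of angiotensin, endothelin and alpha-adrenergic receptors and that produces dilated cardiomyopathy in this model. Littermates of both genotypes received, from 4 to 20 weeks of age, a control diet (CD) or the same chow with 0.5 mg/g of ertugliflozin (ERTU), an inhibitor of the renal glucose transporter SGLT2. RNA-seq gave 18 libraries, of which 5 were Gαq CD, 4 Gαq ERTU, 4 WT CD and 5 WT ERTU, and each is named here by its group and the number of its column. The comparison of genotypes asked which genes of the pathway changed in the failing heart, and the comparison of diets asked whether ERTU moved them. The transgene is described as cardiac-specific, and the RNA came from all cells of the powdered ventricle.

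Macroautophagy encloses cell material in a double membrane and delivers it to the lysosome. The ULK1 kinase complex and the class III phosphatidylinositol 3-kinase start the process, lipid transfer and scaffold proteins extend the membrane, and a pair of ubiquitin-like conjugation systems attaches proteins of the ATG8 family (LC3 and GABARAP) to it. Cargo receptors tie ubiquitin-tagged material to ATG8 proteins, PINK1 and FUNDC1 mark mitochondria for removal (mitophagy), and the lysosome degrades the load under the transcriptional control of TFEB and TFE3. In cardiomyocytes, which are long-lived and rich in mitochondria, the pathway is known for clearing damaged mitochondria. Much of its control is on proteins, which mRNA levels do not show.

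Because TFEB and TFE3 bind the E-box core CACGTG, promoter sequences are shown for 2 members that hold it and for 4 members that differed by genotype. The RefSeq promoter table (GRCm38.p6) spans 250 bases before and 50 after each start of transcription and matched 30 of the 37 members by symbol. The motif reads the same on both strands and was not searched together with any other motif. It lay in the window of 7 of these 30 members (Lamp1, Ctsd, Ctsl, Atg3, Atg5, Atg7 and Atg14), a share of 23.3%, while 8.09% of the 27025 genes in the table held it. The 100 bases before the start are printed 5′ to 3′ on the strand of the gene, with the motif in capitals, for Lamp1 (chr8:13159061-13159160, plus strand), Atg5 (chr10:44268239-44268338, plus), Ulk1 (chr5:110810082-110810181, minus), Atg2a (chr19:6241568-6241667, plus), Pink1 (chr4:138326297-138326396, minus) and Lamp2 (chrX:38456461-38456560, minus).
Lamp1: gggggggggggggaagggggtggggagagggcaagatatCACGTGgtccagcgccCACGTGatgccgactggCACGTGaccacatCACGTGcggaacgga
Atg5: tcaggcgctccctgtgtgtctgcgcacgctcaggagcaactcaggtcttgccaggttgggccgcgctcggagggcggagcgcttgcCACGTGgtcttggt
Ulk1: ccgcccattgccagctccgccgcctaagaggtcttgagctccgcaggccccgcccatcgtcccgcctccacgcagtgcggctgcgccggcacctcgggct
Atg2a: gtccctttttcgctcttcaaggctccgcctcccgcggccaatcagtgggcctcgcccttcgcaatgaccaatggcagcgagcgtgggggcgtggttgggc
Pink1: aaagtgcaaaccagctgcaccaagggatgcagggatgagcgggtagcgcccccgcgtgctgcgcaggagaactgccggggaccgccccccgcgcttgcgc
Lamp2: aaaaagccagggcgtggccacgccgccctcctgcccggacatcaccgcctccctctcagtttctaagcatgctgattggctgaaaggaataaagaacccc
Lamp1 held 4 matches, the first of which began 61 bases before the start, and Atg5 held 1. Of the 8 members that differed by genotype, 7 had a window and 0 of them held the motif. These letters are a description of the windows only.

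Read depth ranged from 15383566 to 20908363 counts per library. Gnaq, the gene of the transgene, read from 45.5 to 229.7 CPM (counts scaled to the size of the library) in the 9 WT libraries and from 1641 to 11672 CPM in the 9 Gαq libraries, so that each library matched its labelled genotype. Within Gαq its median was 8045 CPM on CD and 2711 CPM under ERTU, with ranges that overlapped (1641 to 11672 and 2236 to 5207 CPM), and the log2 difference of ERTU in Gαq was -1.22 ± 0.52 (adjusted p = 0.653, edgeR). Its part in the comparisons of diet, or of genotype within a diet, was not tested. By genotype 9.72% of all genes tested were called higher and 9.92% lower (edgeR, adjusted p under 0.05). In Gαq hearts 6 of 7 fibroblast markers were called higher, with a summed level of 2730 to 4049 CPM against 1432 to 2907 CPM in WT. Of 10 cardiomyocyte markers, 3 were lower, and their summed levels overlapped (73014 to 99199 CPM in Gαq, 72938 to 110429 CPM in WT). Of 10 macrophage markers 1 was higher, of 6 endothelial markers 2 were lower (Cdh5 and Tie1), of 4 mural cell markers 1 was lower (Rgs5), and of the 4 lymphocyte markers tested 1 was higher (Cd79b), with a summed level over 7 markers of at most 7.69 CPM. No marker of these 6 lists was at 0 in any library, and the part of these cell types in the changes by genotype was not tested. Some libraries stood apart. Atrial markers were highest in WT CD library 5, Gαq CD library 8, WT ERTU library 14 and Gαq ERTU library 20 (summed 223, 703, 247 and 482 CPM), with Bmp10 at 0 in 9 libraries. Pdk4, a kinase that restrains glucose oxidation, was 166 CPM in WT CD library 4 and 150, 261 and 105 CPM in Gαq CD libraries 7, 8 and 9, against at least 1308 CPM in the other 14. Both sets were chosen after the values were seen, and member calls that changed without either set are given with and without it.

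To compare genes, CPM was divided by the length in kb of each gene's annotated exons, joined over all its transcripts. The order of genes on this scale therefore depends on the annotated length. On this scale the highest medians were those of Pink1 (328 CPM per kb), a kinase that accumulates on depolarised mitochondria, the lysosomal aspartyl protease Ctsd (270), the ubiquitin-binding receptor Sqstm1 (269), the LC3 gene Map1lc3a (256) and the lysosomal membrane protein Lamp1 (201). The lowest medians were those of the transcription factor Tfe3 (2.24) and of Atg7 (2.99), the E1-like enzyme of both conjugation systems. Among the LC3 genes, Map1lc3a exceeded Map1lc3b (27.7) in every group median. Their exon lengths differed (1181 and 7517 bases), and before division by length the gap was smaller, with medians of 303 and 208 CPM. The within-group coefficient of variation, taken as the median of the 4 groups, had a median of 10.3% over the members and of 15.1% over all genes tested. Becn1, a subunit of the class III kinase, was the steadiest member by the ratio of highest to lowest library (1.19, from 83.0 to 98.8 CPM). Gabarapl1 was the most variable (3.73, from 175 to 654 CPM), followed by Ulk1 (2.98) and Atg13 (2.72). The heat map of all members by library shows the same 3 genes with the widest range of colour.

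**Figure D1:**
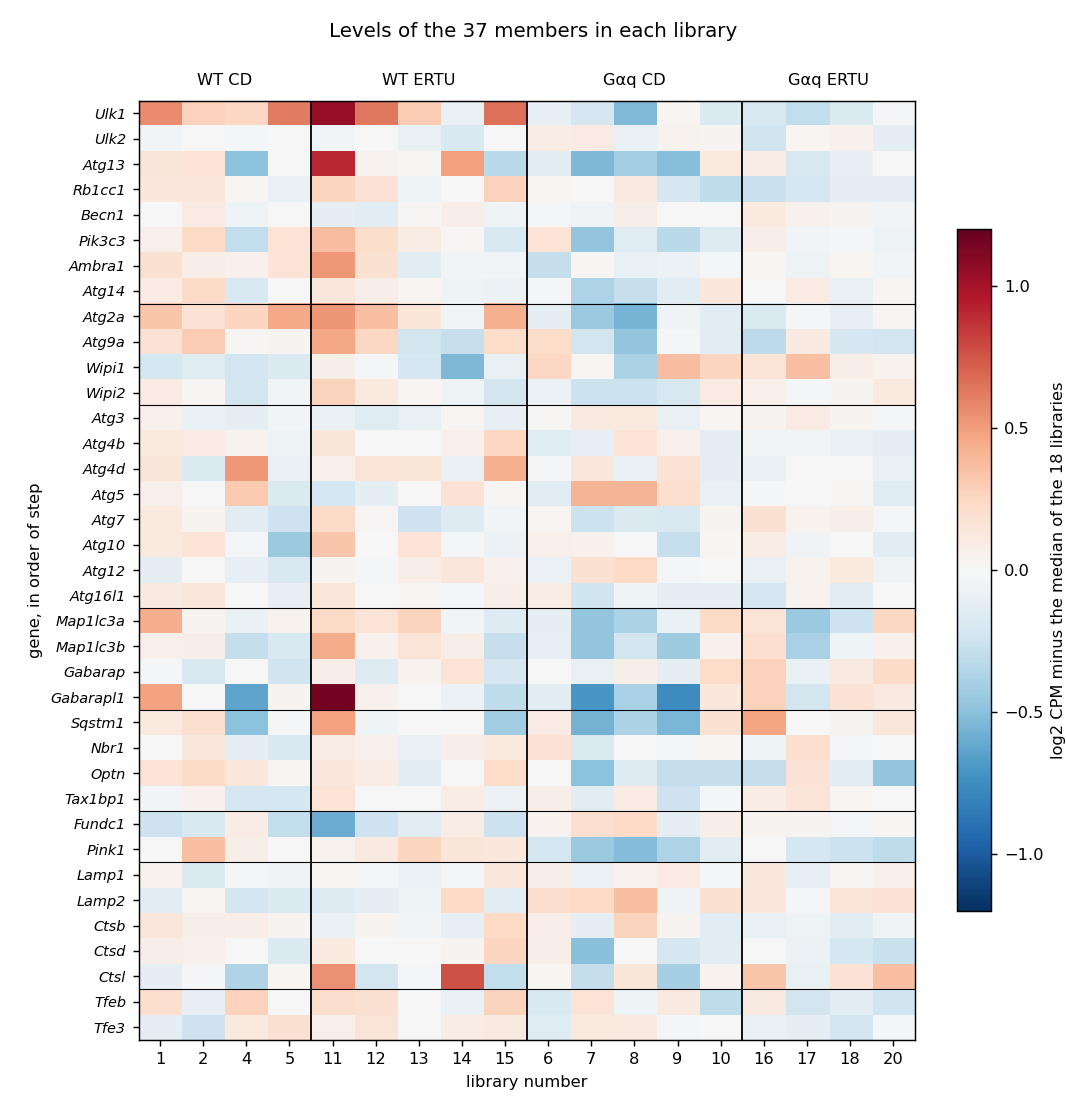
Heat map of log2 CPM of each member (vertical axis, by step) in each of the 18 libraries (horizontal axis, by group), as the difference from the gene's median over all libraries. Ulk1 and Atg2a are mostly above their medians in WT and at or below them in Gαq, and Gabarapl1 and Atg13 stand out in WT ERTU library 11.

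The genotype comparison, with diet in the model, called 8 of the 37 members at an adjusted p under 0.05 (edgeR quasi-likelihood test, Benjamini-Hochberg over all genes tested), a share of 21.6%. Among all genes tested 19.6% were called, so the members were called about as often as other genes. Ulk1, Rb1cc1, Atg2a, Optn and Pink1 were lower in Gαq hearts, where the background for lower calls was 9.92%. Wipi1, Fundc1 and Lamp2 were higher, where it was 9.72%. By sign alone 14 members were higher and 23 lower, with a median log2 change of -0.08 against 0.0038 over all genes tested. In RNA from whole myocardium, fewer cells of a type and less RNA per cell cannot be told apart.

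**Figure D2:**
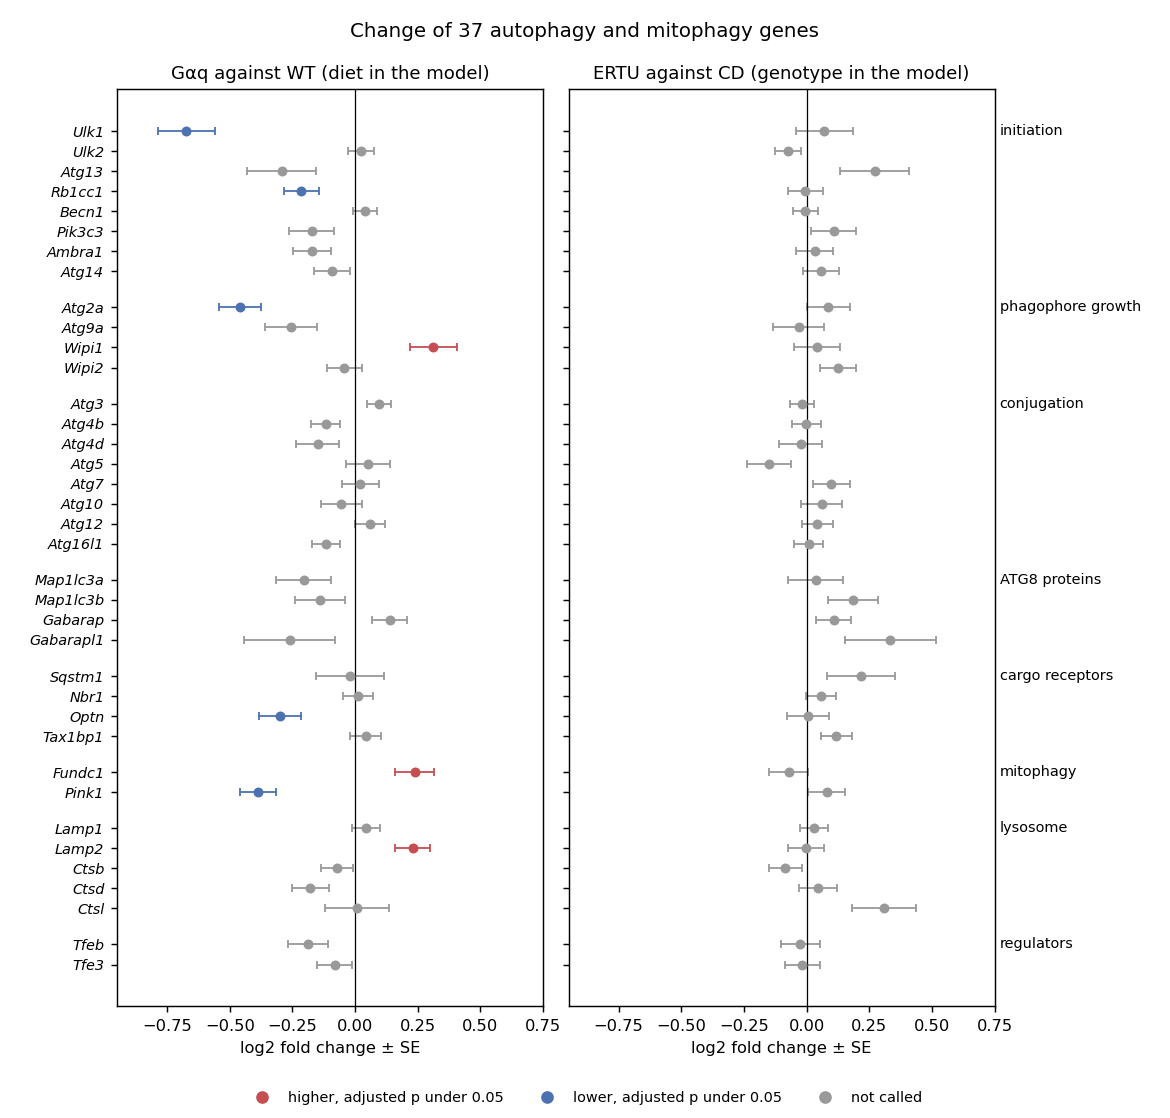
Log2 fold change ± SE of the 37 members by genotype (left, Gαq against WT) and by diet (right, ERTU against CD), in order of step from the top. Coloured points passed an adjusted p of 0.05: 5 members were lower and 3 higher by genotype, and all points by diet are grey.

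At the step of initiation, Ulk1, the kinase that starts autophagy (chromosome 5, 110784488 to 110810097, minus strand, GRCm38), showed the largest change of any member. Its level was 125, 102, 100.4 and 130 CPM in WT CD libraries 1, 2, 4 and 5, and 174, 131, 104, 79.3 and 133 CPM in WT ERTU libraries 11 to 15. In Gαq CD libraries 6 to 10 it was 78.9, 73.4, 58.4, 85.5 and 74.9 CPM, and in Gαq ERTU libraries 16, 17, 18 and 20 it was 74.0, 68.8, 75.02 and 83.2 CPM. The groups on CD did not overlap, whereas on ERTU WT library 14 lay below Gαq library 20. The fall was -0.67 ± 0.11 on the log2 scale (adjusted p = 0.000214, edgeR), to 0.627 of the WT level. It stayed called when any of the 18 libraries was left out. Its promoter window, shown above, held no E-box core.

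Rb1cc1 encodes FIP200, the scaffold of the ULK1 complex. It read 101, 101, 93.3 and 87.5 CPM in WT CD, 111, 105, 89.5, 93.1 and 112 CPM in WT ERTU, 93.7, 91.99, 99.7, 80.6 and 74.9 CPM in Gαq CD, and 77.1, 80.2, 85.9 and 85.5 CPM in Gαq ERTU. The 4 Gαq ERTU libraries all lay below the 5 of WT ERTU, while the groups on CD overlapped. Its change by genotype was -0.21 ± 0.07 (adjusted p = 0.0321, edgeR) and was near the threshold, since it was not called without a filter on low counts (-0.21, adjusted p = 0.0846) or in 11 of 18 fits that left out 1 library, where its change stayed between -0.24 and -0.19 over all 18 and the adjusted p reached 0.0636 (WT CD 1 and 2, WT ERTU 11, 12 and 15, Gαq CD 9 and 10, and each of Gαq ERTU).

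The other 6 initiation genes did not pass the test. Atg13, which links ULK1 to its regulators, had a log2 difference of -0.29 ± 0.14 (adjusted p = 0.148), and the class III kinase genes Pik3c3 and Becn1 had differences of -0.17 and 0.04. Ambra1, a scaffold that promotes BECN1 activity, had a difference of -0.17 (adjusted p = 0.118), with 37.3 to 40.8 CPM in WT CD and 29.6 to 36.4 CPM in Gαq CD, which did not overlap. Atg14 had -0.09 and the ULK1 paralogue Ulk2 0.02, on the log2 scale in each case (edgeR).

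Growth of the phagophore was covered by 4 members, of which 1 fell and 1 rose, against 9.92% and 9.72% of all genes tested. Atg2a transfers lipid into the growing membrane (chromosome 19, 6241668 to 6262335, plus strand). It read 59.3, 53.4, 56.4 and 64.8 CPM in WT CD, 68.4, 60.7, 52.2, 46.1 and 63.7 CPM in WT ERTU, 43.8, 34.7, 32.0, 45.8 and 42.9 CPM in Gαq CD, and 42.0, 46.7, 44.2 and 47.8 CPM in Gαq ERTU. All Gαq CD libraries lay below all WT CD libraries, and on ERTU the low WT library 14 overlapped with Gαq. It fell by 0.46 ± 0.08 on the log2 scale (adjusted p = 0.000516, edgeR) and stayed called with any library left out.

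Wipi1 (chromosome 11, 109573331 to 109611967, minus strand), which binds phosphatidylinositol 3-phosphate on the phagophore, rose in Gαq hearts. Its level was 146, 153, 145 and 150.1 CPM in WT CD, 178, 167, 147, 117 and 159 CPM in WT ERTU, 202, 172, 130.1, 220 and 202 CPM in Gαq CD, and 189, 218, 178 and 175 CPM in Gαq ERTU. Only Gαq CD library 8 of the Gαq CD libraries was within or below the WT CD range. The change was 0.31 ± 0.09 (adjusted p = 0.0195, edgeR), and it was called in all 18 fits with a library left out. The other WIPI gene, Wipi2, had a log2 difference of -0.04 ± 0.07 (adjusted p = 0.721), and Atg9a, the membrane protein of the vesicles that seed the phagophore, had -0.26 ± 0.10 (adjusted p = 0.0896).

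None of the 8 conjugation genes was called by genotype (0 by edgeR, DESeq2 and voom, and 0 at an unadjusted p under 0.05 in edgeR). Their log2 differences ran from -0.15 for the protease Atg4d to 0.09 for the E2-like enzyme Atg3, with 4 above and 4 below 0. Atg7, Atg5, Atg12, Atg16l1, Atg10 and Atg4b, which carry the ubiquitin-like reactions or process ATG8 proteins, all lay between these values. Reads of Atg4d and its neighbour Kri1 share 1405 exonic bases on opposite strands, and the study's methods name the same strand as a condition of counting without saying whether it refers to the gene or to the read pair, so its level is uncertain.

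None of the 4 ATG8 genes was called by edgeR, DESeq2 or voom, and 0 had an unadjusted p under 0.05. Gabarapl1 had a log2 difference of -0.26 ± 0.18, Map1lc3a -0.20 ± 0.11, Map1lc3b -0.14 ± 0.10 and Gabarap 0.14 ± 0.07 (adjusted p = 0.345, 0.210, 0.359 and 0.185, edgeR). Among the cargo receptors Optn (optineurin), which recruits ATG8 proteins to ubiquitin-tagged mitochondria (chromosome 2, 5020642 to 5064051, minus strand), was lower in Gαq. It read 217, 228, 211 and 196 CPM in WT CD, 213, 206, 176, 195 and 226 CPM in WT ERTU, 193, 138, 174, 159 and 159 CPM in Gαq CD, and 159, 219, 178 and 140 CPM in Gαq ERTU. The groups on CD did not overlap, while Gαq ERTU library 17 was as high as WT. Its change was -0.30 ± 0.08 (adjusted p = 0.0134, edgeR). Without the 4 libraries lowest in Pdk4 it was not called (-0.25, adjusted p = 0.0993). Sqstm1, Nbr1 and Tax1bp1, the receptors for protein aggregates and other ubiquitin-tagged cargo, had log2 differences of -0.02, 0.01 and 0.04.

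Both mitophagy members were called, in opposite directions, where 19.6% of all genes tested were called. Pink1 (chromosome 4, 138313409 to 138326307, minus strand) was the member whose 9 Gαq libraries all lay below all 9 WT libraries. Its level was 881, 1129, 918 and 882 CPM in WT CD, 903, 944, 1051, 969 and 955 CPM in WT ERTU, 757, 642, 613, 677 and 799 CPM in Gαq CD, and 873, 759.7, 734 and 711 CPM in Gαq ERTU. The nearest libraries were Gαq ERTU 16 (873 CPM) and WT CD 1 (881 CPM). Among all genes tested 1.83% were lower in this way. The change was -0.39 ± 0.07 (adjusted p = 0.000607, edgeR), and it was called in all 18 fits with a library left out and without the 4 libraries lowest in Pdk4 (-0.32, adjusted p = 0.0119).

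Fundc1, an outer mitochondrial membrane receptor that binds LC3 (chromosome X, 17556564 to 17572325, minus strand), read 29.5, 30.9, 37.2 and 28.5 CPM in WT CD, 23.1, 29.5, 31.9, 37.2 and 29.2 CPM in WT ERTU, 36.0, 40.1, 41.4, 32.5 and 36.98 CPM in Gαq CD, and 35.8, 35.7, 34.6 and 35.3 CPM in Gαq ERTU. WT CD library 4 and WT ERTU library 14 overlapped with Gαq. Its rise of 0.24 ± 0.08 (adjusted p = 0.0370, edgeR) was close to the threshold. It was not called in 12 of 18 fits with a library left out (WT CD 1, 2 and 5, WT ERTU 11, 12 and 15, Gαq CD 7 and 8, and each of Gαq ERTU, adjusted p up to 0.0757), without a filter (0.0570), without the 4 libraries highest in atrial markers (0.0617) or without the 4 lowest in Pdk4 (0.0544). The size of its rise changed little, at 0.20 to 0.28 with a library left out and 0.24, 0.24 and 0.25 in the last 3 fits.

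At the lysosome Lamp2, a lysosomal membrane protein needed for fusion with autophagosomes (chromosome X, 38401357 to 38456454, minus strand), was the called lysosomal member. It read 253, 280.2, 237 and 245 CPM in WT CD, 247, 256, 263, 325 and 251 CPM in WT ERTU, 319, 325, 354, 267 and 312 CPM in Gαq CD, and 300.5, 271, 307 and 310.2 CPM in Gαq ERTU. Gαq libraries were mostly higher, with overlap through WT CD library 2 and WT ERTU library 14. The change was 0.23 ± 0.07 (adjusted p = 0.0245, edgeR). The call was lost when WT CD library 1 (adjusted p = 0.0512) or library 4 (0.0559) was left out, and without the 4 libraries lowest in Pdk4 (0.19, adjusted p = 0.105). The log2 differences of the cathepsins Ctsb, Ctsd and Ctsl and of Lamp1 were -0.07, -0.18, 0.01 and 0.04, and those of Tfeb and Tfe3 were -0.19 and -0.08, with no call. Ctsd and Tfeb were called by voom alone or, for Tfeb, also without the 4 libraries lowest in Pdk4 (adjusted p = 0.0304 and 0.0324 by voom, 0.0489 for the latter). Ctsb shares 774 exonic bases with Fdft1 on the opposite strand, and Ctsd shares 808 with Gm49369 on the same strand. Of the earlier steps, Atg9a shares 1832 with Gm29253 on the same strand and Becn1 3104 with Cntd1 on the opposite strand. The levels of these genes are uncertain to that extent.

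**Figure D3:**
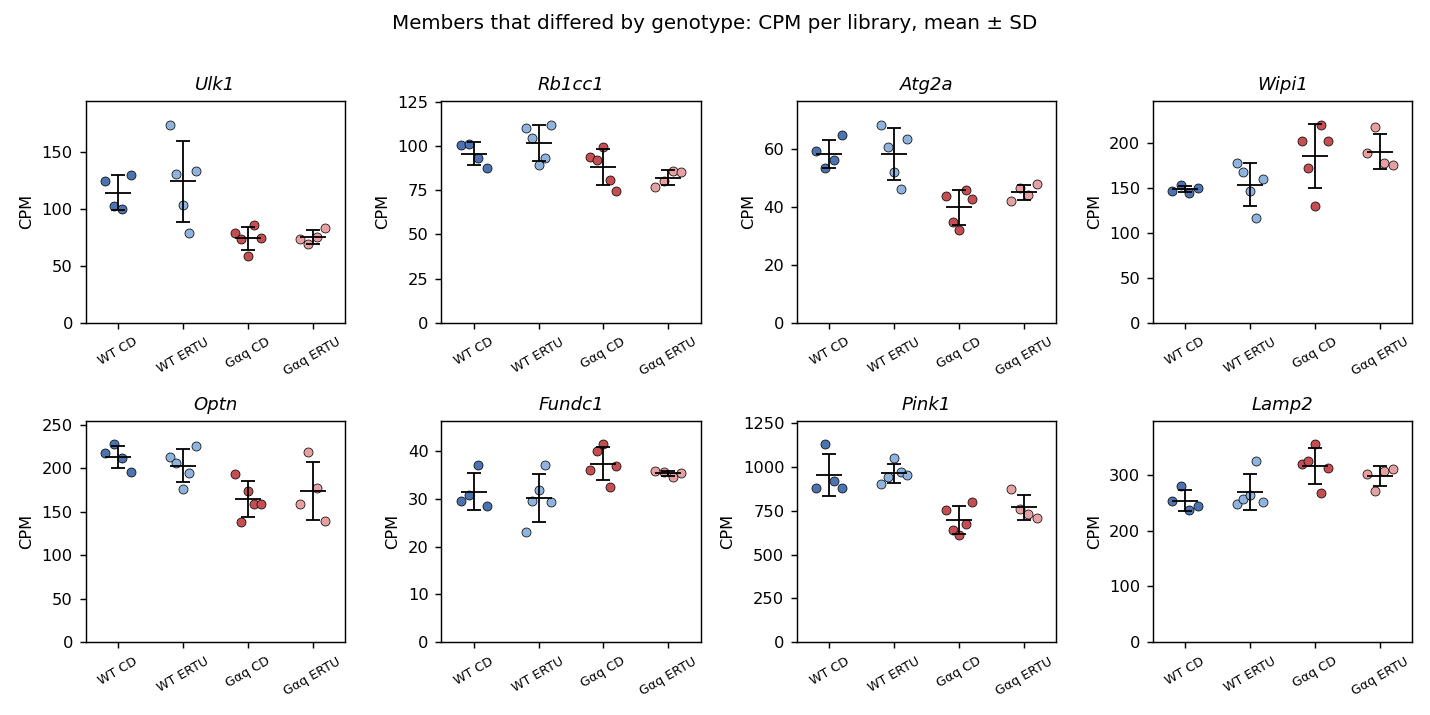
CPM of the 8 members called by genotype (vertical axes, from 0) in each library of the 4 groups (horizontal axis), with the mean and SD of each group as black bars. Pink1 is the panel in which all Gαq points lie below all WT points (873 CPM or less against 881 CPM or more).

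The same comparison was made within each diet. On CD 3 of the 37 members were called, all lower in Gαq, against 8.1% of all genes tested, or 4.1% for lower calls. These were Ulk1 (-0.62 ± 0.16, adjusted p = 0.0213), Atg2a (-0.55 ± 0.12, adjusted p = 0.00569) and Pink1 (-0.45 ± 0.10, adjusted p = 0.00961, edgeR in each case). Ulk1, Ambra1, Atg2a, Optn and Pink1 were the 5 members whose libraries on CD did not overlap, all of them lower, where 4.6% of all genes tested were lower without overlap. Under ERTU 1 member, Ulk1, was called (-0.72 ± 0.17, adjusted p = 0.00880, edgeR), against 8.17% of all genes tested, or 4.24% for lower calls. Rb1cc1, Atg4b, Pink1, Ctsd and Tfe3 did not overlap between the genotypes under ERTU, again all lower, against 5.49% of all genes tested. Rb1cc1 had a difference of -0.31 ± 0.10 under ERTU, not called by edgeR (adjusted p = 0.0509) but called by DESeq2 (0.0207) and voom (0.0277). Atg2a and Pink1 had differences of -0.36 ± 0.12 and -0.33 ± 0.10 under ERTU (adjusted p = 0.0682 and 0.0621, edgeR). Both were called there by DESeq2 (adjusted p = 0.0429 and 0.0155) and by voom (0.0187 and 0.00536). Of all genes, 1777 were called under ERTU by DESeq2 and 2755 by voom. Whether the effect of Gαq differed between the diets was tested by the interaction of genotype and diet, in which these 2 genes had log2 values of 0.19 ± 0.17 and 0.12 ± 0.15 and 0 of 37 members were called (edgeR, all genes tested 0% called, 0 members and 1.92% of all genes at an unadjusted p under 0.05, 0 members by DESeq2 and 0 by voom).

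Of the calls on CD, that of Atg2a held with any library left out (adjusted p up to 0.0202). Ulk1 was not called on CD without WT CD library 1 (adjusted p = 0.0761), WT CD library 5 (0.0591) or Gαq CD library 8 (0.0608), and Pink1 was not called without WT CD library 2 (0.0539), which at 1129 CPM stood above the other WT CD libraries. The change of Ulk1 lay between -0.68 and -0.55 in these 18 fits and that of Pink1 between -0.50 and -0.36. Without the 4 libraries lowest in Pdk4, which leaves 3 WT CD and 2 Gαq CD libraries, 0 members were called on CD (1.9% of all genes tested). The log2 differences were then -0.63 for Ulk1, -0.45 for Atg2a and -0.31 for Pink1 (adjusted p = 0.262, 0.205 and 0.436, edgeR). By genotype over both diets, 6 members were called without these libraries, against 14.4% of all genes tested, and Ulk1, Rb1cc1, Atg2a, Wipi1 and Pink1 were among them.

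ERTU was then compared with CD. With genotype in the model, 0 of 37 members were called (edgeR, 0% of all genes tested). By DESeq2 and by voom the count was also 0, and 1 member had an unadjusted p under 0.05, as had 7.7% of all genes tested. In WT mice alone and in Gαq mice alone the counts were also 0 of 37, with 0 at an unadjusted p under 0.05 (2.24% and 7.62% of all genes tested) and 0 by DESeq2 and voom. Of all genes tested 0% were called for ERTU in WT and 0.00615% for ERTU in Gαq, the latter being 1 gene, Themis2, named after its value was seen (-0.77 ± 0.12, adjusted p = 0.0459). By sign 24 members were higher and 13 lower on ERTU, with a median log2 difference of 0.04, against -0.0017 for all genes tested, of which 49.5% were higher.

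The largest differences with diet, none called, were in an ATG8 gene, a lysosomal protease and an initiation gene. Gabarapl1 had a log2 difference of 0.33 ± 0.18, Ctsl, a lysosomal cysteine protease, 0.31 ± 0.13, and Atg13 0.27 ± 0.14, with Sqstm1 at 0.22 ± 0.14 and Map1lc3b at 0.19 ± 0.10 (adjusted p = 0.652, 0.639, 0.652, 0.682 and 0.652, edgeR). All 4 ATG8 genes and all 4 receptors were above 0, with medians of 0.15 and 0.09, although Map1lc3a, Sqstm1 and Optn were below 0 without the 4 libraries lowest in Pdk4. Ctsl was the member with an unadjusted p under 0.05. Its level was 205, 219, 173 and 226 CPM in WT CD, 326, 191, 219, 378 and 182 CPM in WT ERTU, 226, 182, 245, 169 and 229 CPM in Gαq CD, and 281, 209, 251 and 286 CPM in Gαq ERTU. The diets overlapped in both genotypes. Ctsl shares 1742 exonic bases with an antisense gene and 395 with a pseudogene, which held 1 and 0 reads over all libraries. How reads in shared bases were counted was not stated, so these counts do not show whether Ctsl lost reads.

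The same genes also varied between libraries of a group. Gabarapl1 read 413, 295, 190.2 and 301 CPM in WT CD libraries 1, 2, 4 and 5, and 269, 182, 226, 175 and 323 CPM in Gαq CD libraries 6 to 10. It read 654, 307, 296, 281 and 239 CPM in WT ERTU libraries 11 to 15 and 357, 254, 332 and 319 CPM in Gαq ERTU libraries 16, 17, 18 and 20. Sqstm1 read 983, 1035, 641 and 896 CPM in WT CD and 967, 609, 694, 617 and 1025 CPM in Gαq CD, and on ERTU 1260.1, 871, 901, 906 and 676 CPM in WT and 1259, 901.5, 924.5 and 993 CPM in Gαq. In both genes the lowest WT CD library was 4 and the highest Gαq CD libraries were 6 and 10, as they were for Pdk4.

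In all, 9 of the 37 members had Gαq CD libraries 6 and 10 as the 2 highest of 5, and 6 of these 9 also had WT CD library 4 as the lowest of 4, a place that library took in 16 of all 37 members. The 6 were Atg13, Atg14, Wipi2, Map1lc3b, Gabarapl1 and Sqstm1, and Atg7, Nbr1 and Pink1 were the remaining 3. Atg13 read 93.4 and 111 CPM in Gαq CD libraries 6 and 10 and 70.7, 77.2 and 71.6 CPM in libraries 7, 8 and 9. WT ERTU library 11, where Pdk4 was highest (6869 CPM), was also the highest WT ERTU library for all 6, as it was for 16 of the 37. These orders were counted for the members only and not over all genes tested. Whether they are particular to the members was therefore not tested. Pdk4 was chosen after the values were seen, and its part in the differences with diet was not tested by any model of its level.

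**Figure D4:**
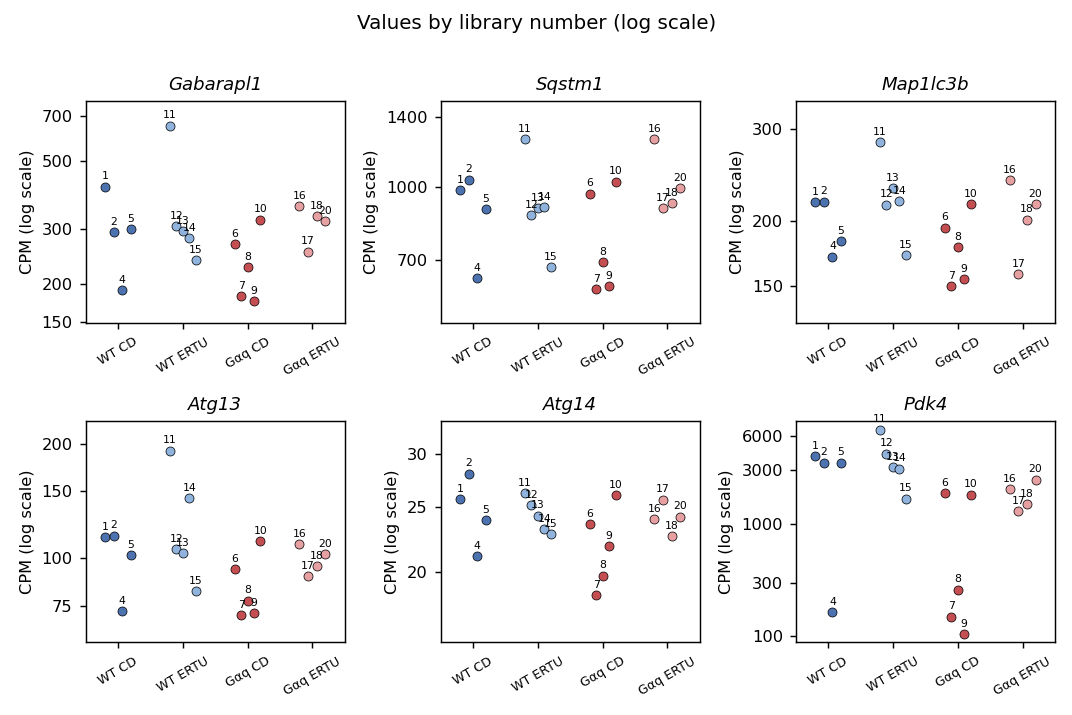
CPM on a log scale of 5 members and of Pdk4 in each library of the 4 groups, each point marked with its library number. The 5 members were chosen from those with this order. WT CD library 4 and Gαq CD libraries 7, 8 and 9 are the low points of their groups in each panel, and library 11 is the highest of WT ERTU.

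Without the 4 libraries lowest in Pdk4 the difference with diet was smaller in size for 20 members and larger for 17, and 14 changed sign. Their median size was 0.04, against 0.06 with all libraries. Of the 5 with the largest differences, Gabarapl1 then had a log2 difference of 0.08 ± 0.19, Atg13 0.09 ± 0.15, Map1lc3b 0.07 ± 0.11 and Ctsl 0.22 ± 0.15, and the difference of Sqstm1 turned to -0.03 ± 0.12 (adjusted p = 1.00 for each, edgeR). These 5 genes were picked for their large difference with all libraries. Gabarapl1, Atg13, Map1lc3b and Sqstm1 were also low in the libraries left out. A smaller difference therefore follows from that choice, and nothing is concluded from it. Among the members that grew in size, Atg4d went from -0.02 to 0.11, Tfeb from -0.03 to 0.10 and Atg9a from -0.03 to -0.12. In Gαq mice the difference of Sqstm1 was 0.38 ± 0.19 with all libraries and 0.03 ± 0.19 without these 4. By sign 22 members were then higher and 15 lower with diet, and in Gαq mice 17 were higher and 20 lower, where with all libraries 25 were higher and 12 lower. The adjusted p was 0.639 or more for every member with all libraries.

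The members were set beside 81 other genes of the same pathway, all of which passed the filter. These 81 were also chosen with earlier results of these data known, which limits what their share of calls can show. By genotype 28 of the 81 were called (11 higher and 17 lower), a share of 34.6% against 19.6% of all genes tested, with a median log2 change of -0.04. Mitophagy genes other than the members fell in 5 of 9 cases, where 9.92% of all genes tested were lower, and rose in 0. These were Bnip3 (-0.61 ± 0.20), Phb2 (-0.43 ± 0.08), Bcl2l13 (-0.37 ± 0.07), Pgam5 (-0.28 ± 0.07) and Mul1 (-0.23 ± 0.06), of which Bnip3, Phb2 and Bcl2l13 encode proteins of the mitochondrial membranes that bind LC3 (adjusted p from 0.000528 to 0.0378, edgeR). Bnip3 read 156 to 262 CPM in WT CD, 187 to 499 CPM in WT ERTU, 97.2 to 218 CPM in Gαq CD and 134 to 265 CPM in Gαq ERTU, so that all groups overlapped, and it was not called without the 4 libraries lowest in Pdk4 (-0.50, adjusted p = 0.134).

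Of 26 other lysosomal genes, 8 were higher and 4 lower, against 9.72% and 9.92% of all genes tested. Ctsk, a cysteine protease that degrades collagen, rose by the most (0.98 ± 0.09, adjusted p = 1.90e-07, edgeR). It read 9.84 to 15.7 CPM over both WT groups and 18.8 to 25.7 CPM over both Gαq groups, without overlap. Of the 16270 genes tested, 282 were higher in this way. Cd63, a membrane protein of late endosomes, and the proteases Ctsz and Ctss rose by 0.52 ± 0.08, 0.51 ± 0.08 and 0.42 ± 0.10 (adjusted p = 3.72e-05, 0.000115 and 0.00417, edgeR). Fibroblast markers, 6 of 7 of them higher in Gαq, moved with these rises, and Ctss is also a gene of macrophages, 1 of whose 10 markers was higher. Their part in these rises was not tested.

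Npc1, which exports cholesterol from the lysosome, and Psap, the precursor of the saposins, fell by 0.77 ± 0.18 and 0.54 ± 0.08 on the log2 scale (adjusted p = 0.00329 and 6.19e-05, edgeR). Psap read 1439 to 1969 CPM in WT and 884 to 1303 CPM in Gαq, and did not overlap. Among all genes tested 1.83% were lower in this way. Npc1 read 139 to 382 CPM in WT and 79.5 to 183 CPM in Gαq. The acid alpha-glucosidase gene Gaa and the cathepsin gene Ctsf were the other lower lysosomal genes (-0.26 and -0.25).

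Of 14 other regulators 5 were lower and 1 higher, against 9.92% and 9.72% of all genes tested, and 8 were not called. Mtor, the kinase that restrains autophagy, fell by 0.45 ± 0.10, its partner Rptor by 0.38 ± 0.09, and Tsc2, which restrains mTORC1, by 0.34 ± 0.09. Prkaa2, the catalytic subunit of AMP-activated kinase that activates ULK1, fell by 0.50 ± 0.14, and the transcription factor gene Foxo1 by 0.41 ± 0.14, whereas Rragd, a GTPase that brings mTORC1 to the lysosome, rose by 0.32 ± 0.09 (adjusted p from 0.00367 to 0.0472, edgeR).

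Of the 6 other initiation genes, Atg101, a partner of ATG13, and Rubcn, an inhibitor of the class III kinase, rose by 0.40 ± 0.09 and 0.35 ± 0.07 (adjusted p = 0.00200 and 0.00160, edgeR). Among all genes tested 9.72% were called higher by genotype and 9.92% lower. Of 6 other receptors, Retreg1, which directs the endoplasmic reticulum to autophagy, and Calcoco1 fell by 0.61 ± 0.17 and 0.35 ± 0.12 (adjusted p = 0.0155 and 0.0377). The late endosomal GTPase gene Rab7 was the called gene among 11 of fusion, and fell by 0.20 ± 0.06 (adjusted p = 0.0275, edgeR). Its step thus had 9.09% called, near the share of lower calls among all genes tested. None of the other conjugation, phagophore or ATG8 genes was called. Within the diets, 9 of the 81 were called on CD (8.1% of all genes tested) and 8 under ERTU (8.17%). By DESeq2 these counts were 16 and 15, when 1715 and 1777 of all genes tested were called. By voom they were 15 and 19, when 1734 and 2755 of all genes were called, against 1318 and 1330 by edgeR. In the other comparisons 0 were called by diet, by ERTU in either genotype, or for the interaction (edgeR, 9, 0, 5 and 0 at an unadjusted p under 0.05, and 0 by DESeq2 and voom in each).

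**Figure D5:**
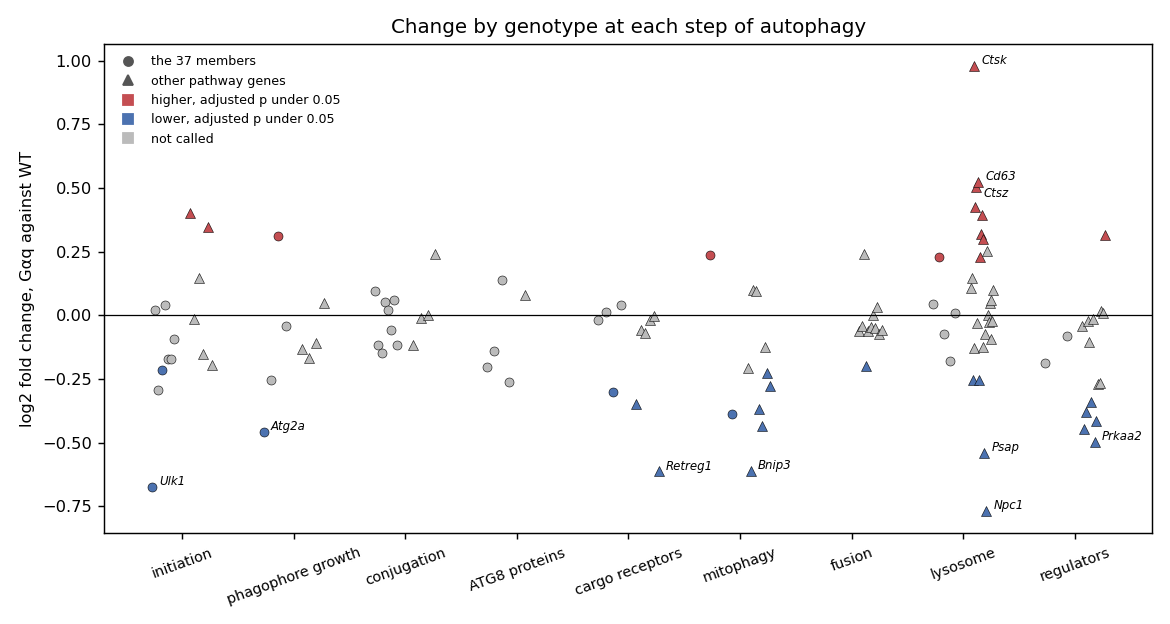
Log2 fold change by genotype (Gαq against WT) of each member (circles) and each of 81 other pathway genes (triangles) at each step. Called genes are coloured, and those beyond 0.45 in size are named. The widest spread is at the lysosome, from Ctsk at 0.98 to Npc1 at -0.77, and conjugation genes are all grey.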

How the data were processed

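RNA of mouse left ventricle was sequenced after poly(A) selection. Per the submitters' processing notes, reads were aligned to mm10 with STAR (version 2.6.0c) and the authors counted them per Ensembl gene with featureCounts (Subread 1.6.2); their methods name the same strand as a condition of counting, and it is not clear whether of gene or read pair. The deposited table held raw counts, and the deposited variance-stabilised table was not used. Library totals are in the report, and their number of counts limits the precision of low genes. Groups came from the names of the count columns, which give genotype and diet as the sample titles do. Each p-value sets a difference between groups of these 18 libraries against the spread of libraries within groups. Symbols and exon lengths came from GENCODE M21 (99.5% of gene IDs matched).

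Genes were filtered with filterByExpr, which left out 0.0906% of counts, scaled by TMM and tested with edgeR 4.0.16 (quasi-likelihood) in R 4.3.3, genotype and diet in an additive model and the other 5 comparisons in a 4-group model of all libraries. Values are TMM-scaled CPM. A call is an adjusted p under 0.05. The code was tested on simulated counts. Alternatives were size factors, filters, DESeq2 1.42.0, voom (limma 3.58.1), other models and omission of libraries. The 37 members, the 81 other genes and the marker lists were chosen with earlier results of these data known. Every called member is given per library, the others by their range or change, and of the other genes up to 6 rises and 6 falls are named, with all called genes of the smaller steps; 1 of these rises is not reported here.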

Additional observations from a re-analysis of the deposited data

Results flagged for a closer look

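Each member was examined in each of the 4 groups, 148 groups of values in all, for a library whose gap to its nearest neighbour was large relative to the range of the group (Dixon's ratio at 95%). Chance marks about 1 in 20 such groups, or 7.4 here, and 4 were marked, each in a different library. That gap as a share of the range follows in parentheses.

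Gabarapl1 was high in WT ERTU library 11, at 654 CPM against 239 to 307 CPM in the other 4 (0.836). Pink1 was high in WT CD library 2, at 1129 CPM against 881 to 918 CPM (0.848). Lamp2 was high in WT ERTU library 14, at 325 CPM against 247 to 263 CPM (0.790). Atg10, the E2-like enzyme that joins ATG12 to ATG5, was low in Gαq CD library 9, at 21.3 CPM against 25.8 to 27.0 CPM (0.782).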

How the results depend on the processing

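No member that was called in a comparison changed sign there under any alternative that was run. Members that were not called did so, 14 by diet and 18 for ERTU in Gαq without the 4 libraries lowest in Pdk4. By genotype the count of called members was 8 by DESeq2 and 10 by voom, when 3551 and 3910 of all genes were called. It was 6 without the 4 libraries lowest in Pdk4 (2389 of all genes). On CD it moved to 5 by DESeq2 (1715 of all genes), which added Optn and Lamp2. It moved to 0 on CD without the libraries lowest in Pdk4, when 317 of all genes were called. Under ERTU it moved to 2 with median-of-ratios size factors, 2 with a filter at a mean CPM of 1, 4 by DESeq2 and 4 by voom. Of all genes 2755 were called there by voom. It was 3 under ERTU without the 4 libraries highest in atrial markers and 2 without those lowest in Pdk4. Without the atrial set Rb1cc1 and Atg2a were called under ERTU (-0.36 and -0.47, adjusted p = 0.0437 and 0.0174, edgeR). Wipi1 was then called on CD (0.42, adjusted p = 0.0227, edgeR). Without the Pdk4 set Atg2a was called under ERTU (-0.37, adjusted p = 0.0493, edgeR). The count of all genes called by diet moved to 2 by DESeq2, and that for ERTU in Gαq to 0 without a filter, 5 by DESeq2, 0 with only the groups compared, and 0 without either set of 4 libraries. The cause of these moves was not tested, and the fits without a set of 4 libraries also had fewer samples.

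With each library left out in turn, the count of called members ranged from 5 to 9 by genotype (5 without WT CD library 1), 2 to 4 on CD, 1 to 3 under ERTU (3 without Gαq CD library 8 or WT ERTU library 14, 2 without WT CD 2 or 5, Gαq CD 10, WT ERTU 13 or Gαq ERTU 16), and 0 to 0 for diet, ERTU in WT, ERTU in Gαq and the interaction. The count of all genes ranged from 2812 to 3458 by genotype, 788 to 1414 on CD (788 without WT CD library 1), 946 to 1696 under ERTU, and 0 to 0 by diet, by ERTU in either genotype and for the interaction. Ulk1, Atg2a, Wipi1, Optn and Pink1 were called by genotype in all 18 of these fits, Lamp2 in all but 2, Rb1cc1 and Fundc1 in fewer. No paired analysis was possible because the numbers of the columns run across the whole series and no number is shared between groups, so the planned fits with a replicate block were not run. Tfe3 and Atg7 had the lowest medians per kb, over exon lengths of 9261 and 6968 bases. Their within-group coefficients of variation were 6.56% and 10.3%, against a median of 10.3% over the members.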
